A study of Mus musculus with 4 samples.

Results

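The cytosolic heat shock machinery was examined in Hepa1c1c7, a mouse hepatoma cell line, through 10 genes: the HSP70 family members Hspa1a, Hspa1b, Hspa8 and Hsph1, the HSP90 gene Hsp90aa1, the small heat shock protein gene Hspb1, the HSP40 genes Dnaja1, Dnajb1 and Dnajb4, and the transcription factor gene Hsf1. Every array probe annotated to a RefSeq transcript of one of these genes was taken, which gave 18 of the 41174 probes of the array. The 2 DEM samples came from cells exposed for 6 hours to 100 µM diethyl maleate (DEM), which binds glutathione and other thiol compounds and is called an Nrf2 activator in the series title. The 2 DMSO samples came from cells exposed for 6 hours to the solvent dimethyl sulfoxide, and no genotype or other agent differed between the groups. Hepa1c1c7 is 1 tumour line, and the labels do not say that the samples of a group came from separate cultures, and every p-value here rests on a sample-to-sample spread that may be only technical.

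HSP70 proteins hold unfolded stretches of other proteins and release them in a cycle driven by ATP. HSP40 proteins deliver those clients and stimulate the ATPase of HSP70, HSP110 proteins such as the product of Hsph1 exchange its nucleotide, and HSP90 acts later on clients that are partly folded. HSF1 is kept inactive by chaperones and, when unfolded protein draws them away, binds heat shock elements, which are repeats of the letters GAA in alternating orientation, and switches on chaperone genes. Thiol-reactive electrophiles are known to trigger this pathway as well as NRF2.

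The sequence around the starts of these genes is shown first, since HSF1 and NRF2 are known to act through elements there. It is printed for the 3 genes with the largest changes and for Hspa1a, which was not well above background. RefSeq windows of 300 bases on GRCm38.p6, from 250 bases before a transcript start to 50 from it on, were matched for 7 of the 10 genes, in 12 windows. The genes not matched were Hspa8, Hsp90aa1 and Hsf1. Both strands were searched for the 3-unit element GAANNTTCNNGAA, for the 2-unit forms GAANNTTC and TTCNNGAA, which the 3-unit element contains, and for TGACNNNGC, the core of the antioxidant response element that NRF2 binds. The 3-unit element was in 0.603% of all 32851 windows of the table, a 2-unit form in 15.1%, and the antioxidant core in 12.4%. Among the 12 windows, 7 held a 2-unit form, 2 held the 3-unit element and 3 held the antioxidant core. The windows with the 3-unit element were overlapping windows of Hsph1 that share 1 element, and they were also 2 of the 3 windows with the antioxidant core. By gene the counts were 6, 1 and 2 of 7, with the near-identical windows of Hspa1a and Hspa1b counted as 2 genes. The shares over all windows are not shares by gene, and a gene with several windows has more places for a match. These matches describe letters and show no binding. Each of the following lines gives the first 280 bases of a window, 5′ to 3′ on the strand of the gene, with heat shock element letters in capitals.
Dnajb4 (chr3:152193816-152194095, minus strand): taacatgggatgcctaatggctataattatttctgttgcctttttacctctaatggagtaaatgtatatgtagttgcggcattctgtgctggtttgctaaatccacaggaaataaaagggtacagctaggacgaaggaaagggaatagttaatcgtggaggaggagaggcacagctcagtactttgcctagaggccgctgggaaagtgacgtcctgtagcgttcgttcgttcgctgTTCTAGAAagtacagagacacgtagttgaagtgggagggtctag
Dnajb4, other start (chr3:152210054-152210333, minus strand): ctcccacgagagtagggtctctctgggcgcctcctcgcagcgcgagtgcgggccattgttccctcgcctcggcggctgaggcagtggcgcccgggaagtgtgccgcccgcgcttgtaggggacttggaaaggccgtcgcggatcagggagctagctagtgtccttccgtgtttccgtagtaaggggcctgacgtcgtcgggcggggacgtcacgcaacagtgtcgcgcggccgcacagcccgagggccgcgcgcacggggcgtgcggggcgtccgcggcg
Dnajb1 (chr8:83607925-83608204, plus strand): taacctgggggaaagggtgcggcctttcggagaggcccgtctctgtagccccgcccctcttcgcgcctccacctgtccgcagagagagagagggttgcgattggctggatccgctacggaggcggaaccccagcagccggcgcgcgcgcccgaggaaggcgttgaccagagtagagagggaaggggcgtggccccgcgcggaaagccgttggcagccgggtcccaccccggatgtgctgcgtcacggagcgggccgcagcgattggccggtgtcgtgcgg
Hsph1 (chr5:149636286-149636565, minus strand): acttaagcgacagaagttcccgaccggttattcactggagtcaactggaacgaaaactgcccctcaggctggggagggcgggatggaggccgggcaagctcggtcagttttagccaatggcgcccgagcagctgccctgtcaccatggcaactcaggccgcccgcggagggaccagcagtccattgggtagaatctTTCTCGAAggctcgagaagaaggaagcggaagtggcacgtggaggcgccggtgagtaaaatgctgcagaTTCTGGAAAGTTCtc
Hspa1a (chr17:34972127-34972406, minus strand): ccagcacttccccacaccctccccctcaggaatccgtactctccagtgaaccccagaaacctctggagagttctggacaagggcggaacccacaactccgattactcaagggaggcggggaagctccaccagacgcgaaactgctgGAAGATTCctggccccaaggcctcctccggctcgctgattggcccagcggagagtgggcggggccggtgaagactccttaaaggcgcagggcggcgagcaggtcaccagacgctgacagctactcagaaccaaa

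The capitals in the first Dnajb4 window mark a 2-unit form 14 bases before the start, and the window of its other start held none of the 3 motifs. Dnajb1 had no exact match to the searched heat shock element forms in either of its 2 windows, and the one printed held 1 antioxidant core beginning 15 bases before the start. Imperfect elements and elements outside the windows were not searched. The Hsph1 window held a 2-unit form 54 bases before the start, the 3-unit element beginning 15 bases after it, and 2 antioxidant cores. Hspa1a held a 2-unit form 104 bases before the start, and the Hspa1b window, which differs from it in 4 of 300 bases, held the same one. Hspb1 held 2 such forms and Dnaja1 held 1.

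On each array 50.4% to 52.6% of probes were well above background by the scanner software, and no spot was saturated. Signals are given as the scanner's processed signals, in intensity units. For the tests they were put on a common scale by subtracting each array's 75th percentile on the log2 scale, and that percentile lay between 513 and 547.5 intensity units on the 4 arrays. Across the 21140 probes tested, the DEM arrays correlated at r = 0.9942 and the DMSO arrays at r = 0.9941, and arrays of different groups at 0.9891 to 0.9910, across probes, which are not independent replicates. The cells responded to DEM: the haem-degrading enzyme gene Hmox1 was 23.4-fold higher, Nqo1, a quinone reductase, 5.10-fold higher, and Slc7a11, the cystine importer, 35.5-fold higher by its brightest probe and 14.1-fold and 23.9-fold by its other probes (limma adjusted p = 0.00354 for Hmox1, 0.00997 for Nqo1 and 0.00354 for Slc7a11). The liver markers Afp and Alb were well above background on all 4 arrays, while Apoa1, Fgb, Hnf4a and Ttr were not on any array. Of the 10 liver markers with a named probe, 6 were well above background on both DEM arrays and 5 on both DMSO arrays, and the summed signal of the list was 94823 and 91220 in DEM, against 79610 and 69803 in DMSO. The part of that difference in the heat shock results was not tested. The arrays read RNA of whole cultures, in which fewer cells of a type and less RNA per cell cannot be told apart. Pecam1 and Cdh5 of endothelium and Adgre1 and Itgam of macrophages were well above background on no array, while Cd14 and Csf1r of the macrophage list and, at 19.4 to 62.9 intensity units, Lyve1 and Stab2 of the endothelial list were so on all 4. Cd14 read 1420 and 1140 in DEM, against 1770 and 1610 in DMSO, and Csf1r read 1860 and 1320 in DEM, against 1300 and 994 in DMSO. The fibroblast list, led by Col1a1, summed to 36157 and 42189 in DEM, against 39990 and 44021 in DMSO, and the cholangiocyte list, led by Krt7, to 70694 and 80277 in DEM, against 83330 and 87411 in DMSO. No tested gene of the 5 marker lists was called, and marker genes well above background on fewer than 2 arrays were not tested.

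Of the 18 heat shock probes, 13 probes of 7 genes passed the filter for testing, a signal well above background on 2 or more arrays, and each of these had one on all 4. Both probes of Dnajb4 were called higher in DEM and none was called lower, where a call means a limma p-value under 0.05 after Benjamini-Hochberg adjustment over all probes. Over all probes tested, 1.01% were called, 0.610% higher and 0.402% lower. Without adjustment, p was under 0.05 for 6 of the 13 in the upward direction and for 0 downward, against 8.52% and 10.1% of all probes. Both DEM values lay above both DMSO values for 10 of the 13 probes, as held for 24.4% of all probes tested, and both lay below for 0 of 13, against 25.5% of all probes, so 10 of 13 did not overlap between the groups, as held for 49.9% of all probes. The median log2 change of the 13 probes was 0.18, against −0.01 for all probes tested, and single probes ran from −0.10 to 1.24. Probes of 1 gene share that gene's RNA and are not independent of each other. The genes were also chosen with earlier results of these data known, so these counts only describe them.

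**Figure D1:**
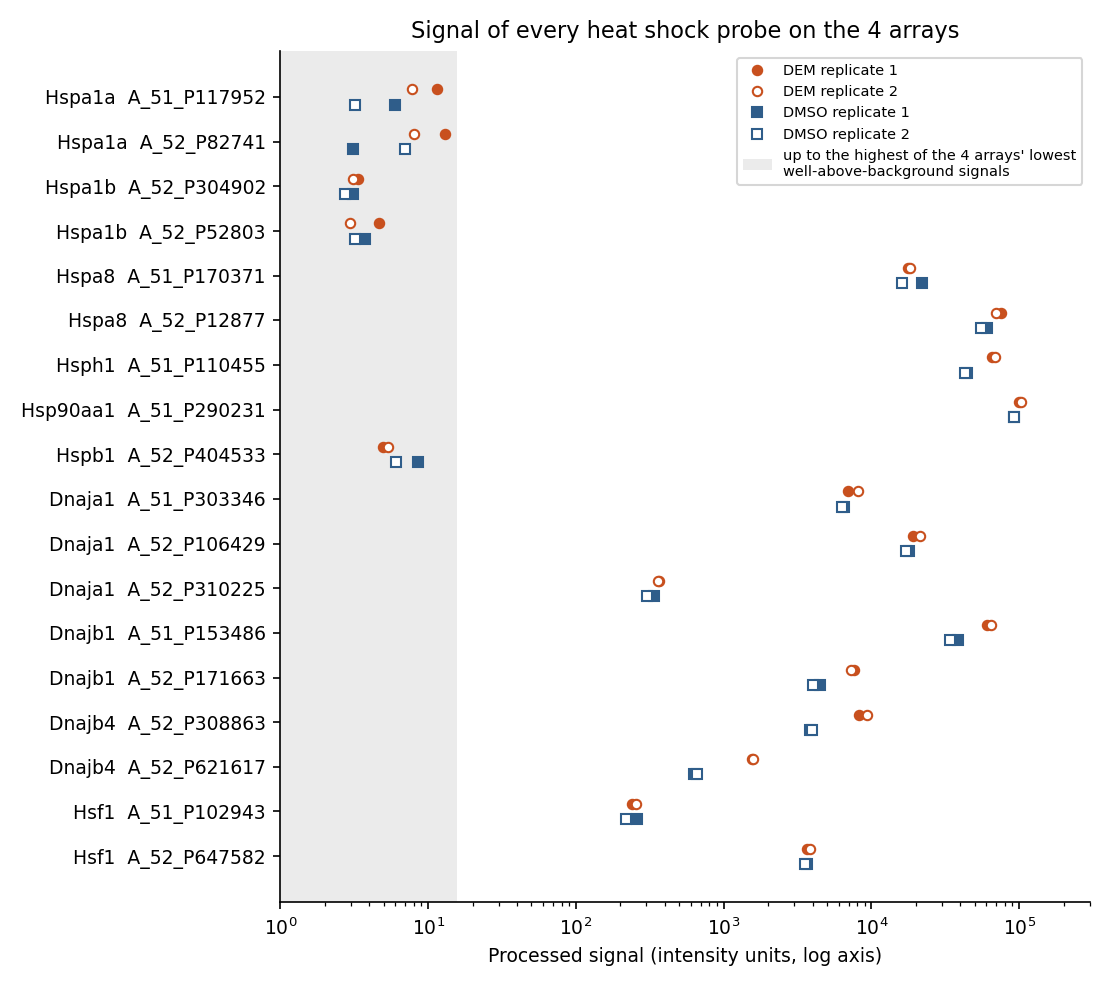
Processed signal of each of the 18 heat shock probes (intensity units, log axis) on the 2 DEM arrays (circles) and the 2 DMSO arrays (squares). The probes of Hspa1a, Hspa1b and Hspb1 lie in the grey band, which ends at 15.7, the highest of the 4 arrays' lowest well-above-background signals, and both Dnajb4 probes lie higher in DEM. Probes differ in how strongly they bind, so levels are to be read within a row only.

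The inducible HSP70 genes were not well above background in either group. Hspa1a and Hspa1b encode the nearly identical HSP70 proteins that heat induces most strongly in mouse cells. Probe A_51_P117952 of Hspa1a read 11.4 and 7.72 in DEM, against 5.94 and 3.18 in DMSO. Probe A_52_P82741 of Hspa1a read 13.0 and 7.99 in DEM, against 3.11 and 6.97 in DMSO. The DEM values were above the DMSO values for both probes, but the lowest signal called well above background was 15.7 and 14.6 on the DEM arrays and 13.5 and 12.0 on the DMSO arrays, and the software's error of the Hspa1a signals ran from 2.83 to 3.61. For Hspa1b, probe A_52_P52803 read 4.61 and 2.96 in DEM, against 3.72 and 3.18 in DMSO, and probe A_52_P304902 read 3.34 and 3.10 in DEM, against 3.10 and 2.74 in DMSO. Since none of the 4 probes was well above background on any array, no fold is given. Signal shared between the probes of these near-identical genes was not tested.

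Hspb1, the small heat shock protein that binds unfolding proteins without ATP, was also not well above background on any array, and its 1 probe read 4.93 and 5.34 in DEM, against 8.56 and 6.09 in DMSO. Both DEM values were the lower ones, but the nearest pair, 5.34 in DEM and 6.09 in DMSO, lay closer together than the software's errors of 3.09 and 2.69. A weaker test by the software found the signal positive and significant on 4 arrays for Hspb1 and for probe A_51_P117952 of Hspa1a, on 3 for probe A_52_P82741 of Hspa1a and probe A_52_P52803 of Hspa1b, and on 0 for the other Hspa1b probe.

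Dnajb4 was the gene whose probes were called. It encodes an HSP40 co-chaperone of the cytosol, and its probes are annotated to separate RefSeq transcripts. Whether each probe reads only its own transcript was not tested. Probe A_52_P308863, annotated to NM_025926, read 8280 and 9340 in DEM, against 3810 and 3980 in DMSO. Its change was 2.19-fold, or 1.13 ± 0.12 on the log2 scale (SE, 2 arrays in each group, 95% interval 0.82 to 1.45, limma adjusted p = 0.0435). Probe A_52_P621617, annotated to NM_027287, read 1550 and 1590 in DEM, against 632 and 657 in DMSO. It was 2.37-fold higher (log2 change 1.24 ± 0.10, 95% interval 0.98 to 1.50, limma adjusted p = 0.0317). The groups did not overlap for either probe, the 2 intervals overlapped each other, and only 0.804% and 0.624% of all probes tested had a higher log2 change than these. Without DMSO replicate 1 the adjusted p was 0.220 and 0.181, and without DMSO replicate 2 it was 0.220 and 0.176, with log2 changes of 1.08 and 1.19 without replicate 1 and 1.19 and 1.30 without replicate 2. The first probe was also not called without DEM replicate 2 (limma adjusted p = 0.0575) or under quantile normalization (0.0651). Neither Dnajb4 probe was called with the replicate number as a block (0.0544 and 0.0509) or with dim probes kept in the test (0.202 and 0.188).

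Dnajb1, the HSP40 best known for supporting HSP70 after heat and for restraining HSF1, had values that did not overlap between the groups but missed the threshold. Probe A_52_P171663 read 7630 and 7260 in DEM, against 4470 and 4010 in DMSO. Its log2 change was 0.77 ± 0.09, a 1.71-fold difference (95% interval 0.53 to 1.02, limma adjusted p = 0.0533). Probe A_51_P153486 read 60600 and 64400 in DEM, against 38400 and 34100 in DMSO. Its log2 change was 0.75 ± 0.11, a 1.68-fold difference (95% interval 0.47 to 1.02, limma adjusted p = 0.0642). The probes gave nearly the same size, and 1.77% and 1.92% of all probes tested had a higher change. Both were called when only probes well above background on all 4 arrays were tested (limma adjusted p = 0.0294 and 0.0373). The same held under median scaling (0.0184 and 0.0275), which moved the median of all probes to 0.14. It also held after normexp background correction (0.00561 and 0.00603) and with an intensity trend in the variance (0.00348 for both). Neither was called with spike-in scaling (0.167 and 0.202) or with dim probes kept in the test (0.224 and 0.244). Quantile normalization (0.0588 and 0.0665) and the replicate number as a block (0.0639 and 0.0786) also left both uncalled. With 1 array left out the log2 changes lay between 0.72 and 0.82 and between 0.68 and 0.82.

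Dnaja1, the HSP40 of the other main class, which carries a lipid anchor and a zinc-binding region, differed little. Probe A_51_P303346 read 6960 and 8050 in DEM, against 6470 and 6360 in DMSO. Probe A_52_P106429 read 19200 and 21200 in DEM, against 18000 and 17200 in DMSO, and probe A_52_P310225 read 362 and 359 in DEM, against 338 and 304 in DMSO. All 3 had both DEM values above both DMSO values, with log2 changes of 0.18 ± 0.12, 0.16 ± 0.11 and 0.13 ± 0.09. Leaving out DEM replicate 1 moved the first and second changes to 0.31 and 0.25, leaving out DEM replicate 2 moved them to 0.050 and 0.058, and the third was 0.078 without DMSO replicate 2. Their 95% intervals held 0 and ended at 0.51, 0.44 and 0.37, below the lower end of either Dnajb4 interval, and the limma adjusted p lay between 0.509 and 0.540.

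**Figure D2:**
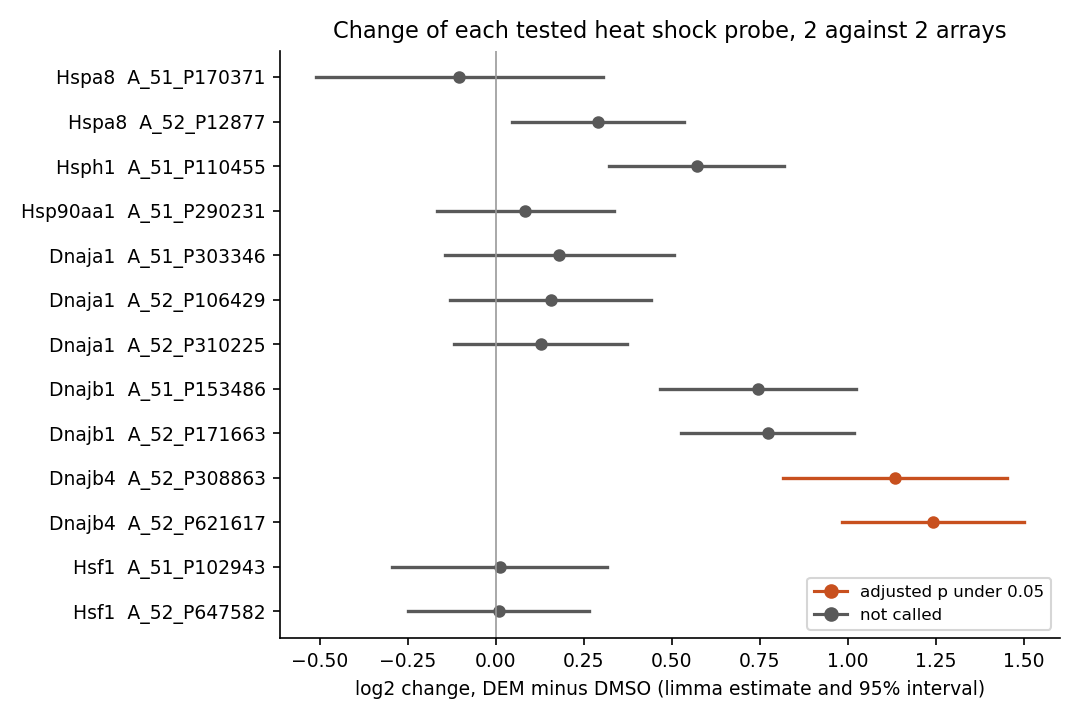
Log2 change (DEM minus DMSO) of each of the 13 tested heat shock probes, with limma's 95% interval as a line. The Dnajb4 probes, at 1.13 and 1.24, were called, the Dnajb1 probes and Hsph1 lay between 0.57 and 0.77, and the 2 Hsf1 probes lay at 0.01.

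Hsph1, the HSP110 that exchanges nucleotide on HSP70 and slows aggregation, read 65300 and 68300 in DEM, against 44400 and 43000 in DMSO. Its log2 change was 0.57 ± 0.09, a 1.49-fold difference (95% interval 0.32 to 0.82, limma adjusted p = 0.0815). The groups did not overlap, and 3.34% of all probes tested had a higher change. Hsph1 was called after normexp (limma adjusted p = 0.0156), under median scaling (0.0471) and with an intensity trend (0.00528). Spike-in scaling (0.563), dim probes kept in the test (0.279), quantile normalization (0.0882) and the replicate number as a block (0.0784) left it uncalled. So did testing only probes well above background on all 4 arrays (0.0529). With 1 array left out its log2 change lay between 0.51 and 0.63.

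The probes of Hspa8, which encodes the constitutive HSP70 of the cytosol, did not give the same picture. Probe A_52_P12877 read 75600 and 69300 in DEM, against 60100 and 55000 in DMSO, a log2 difference of 0.29 ± 0.09 (95% interval 0.05 to 0.54, limma adjusted p = 0.214). Probe A_51_P170371 read 17800 and 18200 in DEM, against 21800 and 16200 in DMSO, with a log2 change of −0.10 ± 0.15 (95% interval −0.51 to 0.30, limma adjusted p = 0.783). For the second probe the DMSO values lay on either side of the DEM values, and its sign turned to 0.08 without DMSO replicate 1 and to 0.04 under median scaling. The first probe was called after normexp (0.42, limma adjusted p = 0.0359) and with a robust intensity trend (0.29, limma adjusted p = 0.0349). It was not called under median scaling (0.152), quantile normalization (0.234), with the replicate number as a block (0.126) or with dim probes kept (0.497). Transcripts of Hspa8-like gene copies could share signal with these probes, which was not tested.

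Hsp90aa1, the stress-inducible HSP90 of the cytosol, read 99000 and 103000 in DEM, against 92600 and 92500 in DMSO. Its log2 change was 0.08 ± 0.09 (95% interval −0.17 to 0.33, limma adjusted p = 0.702), and the change came to 0.14 with DEM replicate 1 left out and to 0.030 with DEM replicate 2 left out. Both DEM values were above both DMSO values, and the interval ended below the lower end of either Dnajb4 interval.

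Hsf1, the factor itself, showed no detectable difference in transcript level. Probe A_52_P647582 read 3640 and 3860 in DEM, against 3680 and 3560 in DMSO, and probe A_51_P102943 read 241 and 254 in DEM, against 260 and 219 in DMSO. The groups overlapped for both probes. The log2 changes were 0.01 ± 0.10 and 0.01 ± 0.12, with 95% intervals of −0.25 to 0.27 and −0.30 to 0.32, and their sign differed between ways of processing. HSF1 is known to be controlled at the level of the protein, which arrays do not read.

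**Figure D3:**
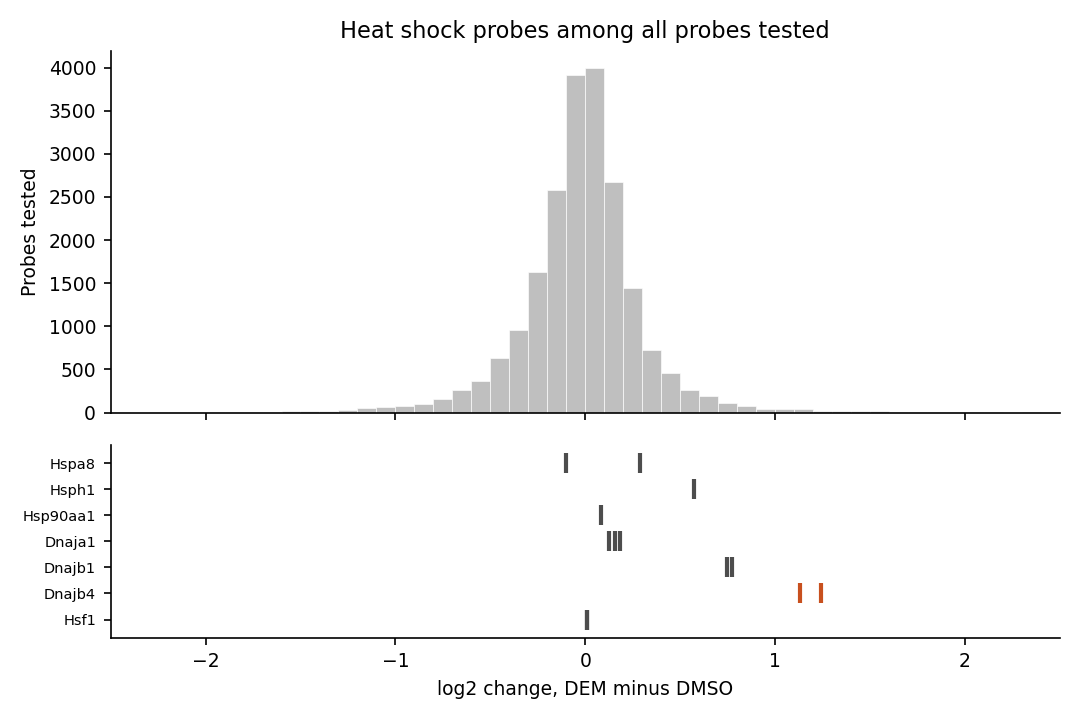
The histogram shows how many of all probes tested had each log2 change (DEM minus DMSO, bins of 0.1 between −2.5 and 2.5), and ticks under it mark the 13 heat shock probes by gene. The Dnajb4 ticks lie in the upper tail at 1.13 and 1.24, and those of Hsf1 and Hsp90aa1 near the centre.

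The nearest expression patterns to that of Dnajb4 were sought among 10946 other named genes, by the root mean square distance of log2 values, each centred on its own mean over the 4 arrays. The 5 nearest to probe A_52_P621617 were Sh3bp2, Abca8b, Fgd3, Tekt2 and Ypel5, at distances of 0.04 to 0.07, and their log2 changes ran from 1.20 to 1.36. The distance covers 4 arrays in 2 groups, so genes with a similar size of change lie close by construction.

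The rest of the folding network was followed through 9 lists of chaperones, co-chaperones and their regulators, each gene read by its brightest tested probe. Of 88 genes tested, 0 were called in either direction by limma, against 0.663% of all 15537 genes called higher and 0.463% called lower. Of those 15537, 10953 had a gene symbol, and the rest had only the array's own name, while every list gene had a symbol. Without adjustment, p was under 0.05 for 12 of the 88 upward and 0 downward, against 8.89% and 10.3% of all genes. Both DEM values lay above both DMSO values for 37 of the 88 and below for 9, against 24.9% and 25.6% of all genes. The median log2 change was 0.08, against −0.01 for all genes. Alternatives called up to 5 of these genes. The lists were chosen with earlier results of these data known.

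Bag3, the exchange factor that links HSP70 to autophagy and a known HSF1 target, read 3880 and 4550 in DEM, against 2330 and 2150 in DMSO, a difference of 0.87 ± 0.13 in log2 (adjusted p = 0.0709). The other 9 genes of HSP70 exchange factors and adaptors ran lower than this, and the median of the 10 was 0.09. Dnajb2, an HSP40 with ubiquitin-binding motifs, read 3640 and 3400 in DEM, against 2070 and 1870 in DMSO, a difference of 0.80 ± 0.09 in log2 (adjusted p = 0.0505), and the median of the 10 HSP40 genes tested in its list was 0.04. Hspb8, the small heat shock protein that partners with BAG3, read 17700 and 16300 in DEM, against 11900 and 10300 in DMSO, with a log2 change of 0.58 ± 0.10 (adjusted p = 0.0902, median of 6 genes 0.16). In these genes the groups did not overlap, and none passed the threshold as reported. Each of their lists gained 1 called gene after normexp, under median scaling and with an intensity trend, and none under quantile normalization or spike-in scaling.

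Hspa4l, an HSP110 relative of Hsph1, was at 0.49 ± 0.09 in log2 (adjusted p = 0.105), and its other tested probes gave 0.50 and 0.45. Among 15 genes of HSP90 and its co-chaperones the median was 0.09, and Ahsa2, a stimulator of the HSP90 ATPase, had the largest change at 0.51 ± 0.13 (adjusted p = 0.150). Among 6 heat shock factors and HSF1 regulators the median was 0.17, with Vcp, the ATPase that extracts ubiquitinated proteins, at 0.32 ± 0.10 (adjusted p = 0.200). The 14 genes of the CCT chaperonin and prefoldin, which fold actin and tubulin, had a median of −0.0016, and Pfdn1 had the largest change at −0.18 ± 0.10 (adjusted p = 0.435). The 11 mitochondrial chaperones had a median of 0.05, with Clpx, an unfoldase, at 0.26 ± 0.09 (adjusted p = 0.239). The 12 chaperones of the endoplasmic reticulum had a median of 0.10, with the HSP40 Dnajb9 at 0.55 ± 0.14 (adjusted p = 0.151), and the other probes of Dnajb9 gave 0.51 and 0.43. Leaving out 1 array moved several of these medians by over 1.5 times. With DEM replicate 1 left out, the median of the heat shock factors and regulators came to 0.053 and that of the endoplasmic reticulum list to 0.15. With DEM replicate 2 left out, the mitochondrial median came to 0.076. With DMSO replicate 1 left out, the medians came to 0.086 for the heat shock factors and regulators, 0.10 for the mitochondrial list and 0.024 for the other HSP40 genes. With DMSO replicate 2 left out, they came to 0.0023 for the mitochondrial list, 0.063 for the other HSP40 genes and 0.10 for the small heat shock proteins. The CCT and prefoldin median stayed below 0, between −0.033 and −0.0043.

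A list of polyubiquitin and other stress genes, chosen as linked to HSF1, had 2 rises and 0 falls among 10 tested. Over all genes, 0.663% were called higher and 0.463% lower. The list median was 0.30 (0.17 without DMSO replicate 2), and the action of HSF1 on each of its genes was not tested. The rises were Hmox1, already given and also an NRF2 target, and Sqstm1, an autophagy receptor for ubiquitinated protein. Sqstm1 was 2.17-fold higher (log2 change 1.12 ± 0.11, limma adjusted p = 0.0391). The parts of HSF1 and NRF2 in the rise of either gene were not tested. Of 8 NRF2 targets kept as a check of the response, 8 rose, with a median log2 change of 2.16. Slc7a11, the growth inhibitor Osgin1 and Nqo1 had changes of 5.15, 3.78 and 2.35 by their brightest probes. The stress list and this list were both chosen with earlier results of these data known, so their counts are no independent check. These counts fell to 1 of 10 and 2 of 8 without DMSO replicate 1, and to 0 of 10 and 0 of 8 without DMSO replicate 2, and the first fell to 1 without DEM replicate 2. They were 1 of 10 and 2 of 8 with the replicate number as a block, and 0 of 10 and 0 of 8 with dim probes kept in the test.

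**Figure D4:**
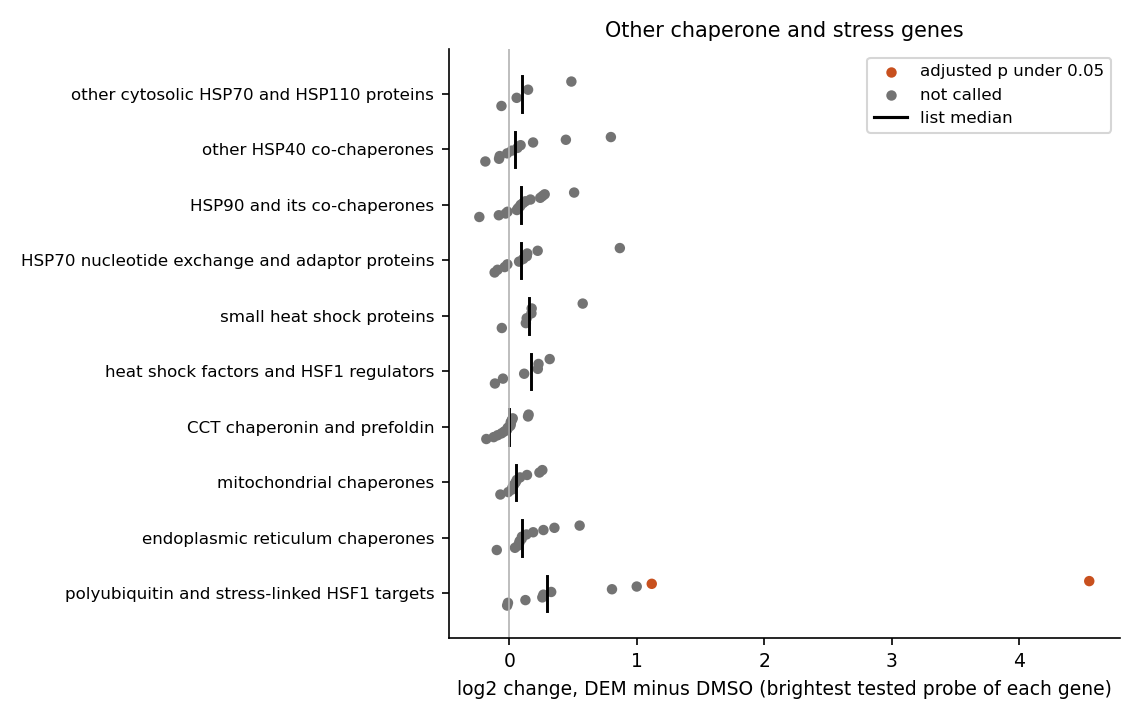
Log2 change (DEM minus DMSO) of each tested gene of the 9 chaperone lists and of the list of polyubiquitin and stress genes, 1 point per gene at its brightest tested probe, with the list median as a bar. No chaperone list holds a called gene, and the point far to the right is Hmox1 at 4.55.

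**Figure D5:**
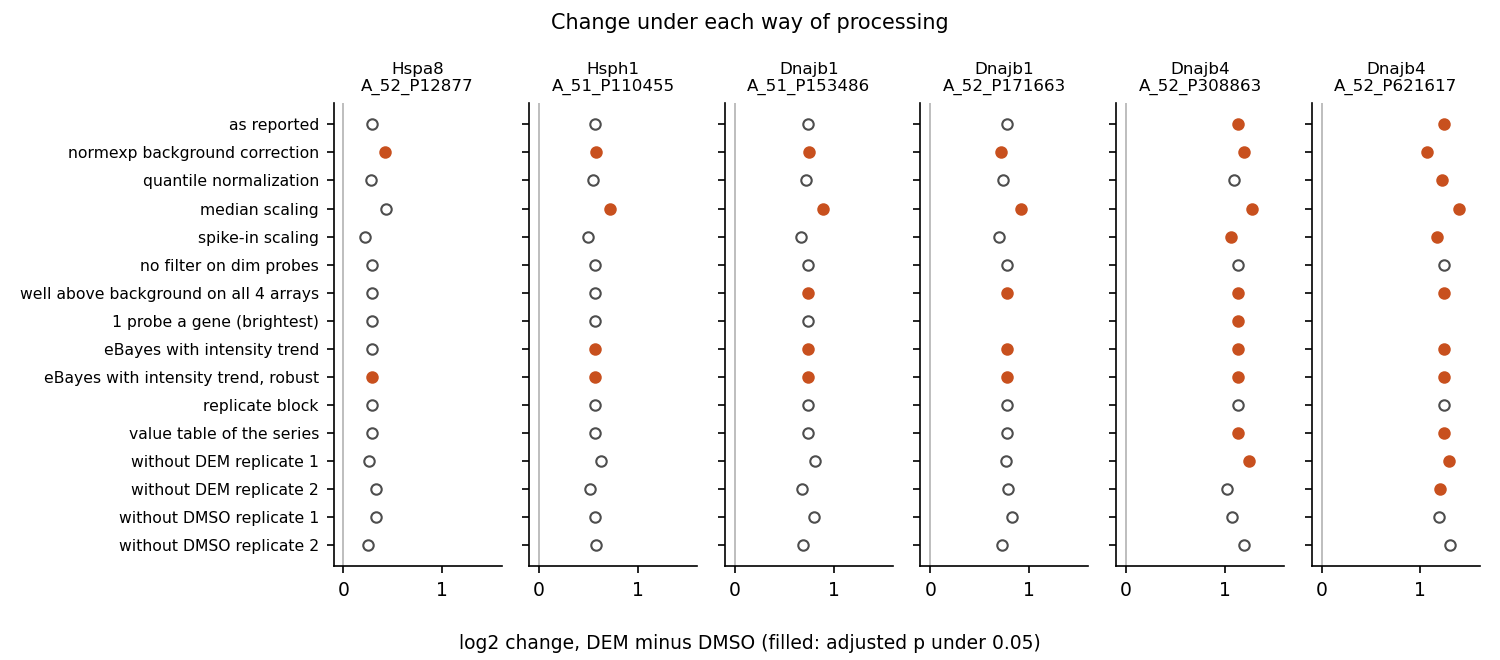
Log2 change (DEM minus DMSO) of 6 heat shock probes under the reported processing and each alternative, filled where the adjusted p was under 0.05. The Dnajb4 changes stayed between 1.02 and 1.39 in all of these, while the calls of Dnajb4, Dnajb1, Hsph1 and 1 Hspa8 probe came and went.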

How the data were processed

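RNA of 2 DEM and 2 DMSO samples of Hepa1c1c7 cells was read on 1-colour Agilent mouse arrays, 1 array a sample. The extract protocol of the labels speaks of liver tissue, while the other labels name the cell line. The deposited scanner files hold intensity values for each spot, made by Feature Extraction 10.7.3.1, and the processed signal is already background-subtracted, per the file headers. The series' deposited value table holds the same intensity values. All 4 arrays share 1 slide and 1 scan, so no batch could be tested.

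Control spots (leaving 43379) and spots flagged as outliers were dropped, spots of a probe were averaged, and log2 of the deposited processed signal was taken relative to each array's 75th percentile. Probes well above background on at least 2 of 4 arrays were fitted with limma 3.58.1 (R 4.3.3, lmFit and eBayes, all 4 arrays, no covariate), and p-values were adjusted by Benjamini-Hochberg over all 21140 probes tested, with a threshold of 0.05. Errors are limma's standard errors with n = 2 arrays per group, and the small number of arrays limits the precision. Lists were counted by the brightest tested probe of each gene and got no set test. In the lists only a named probe stands for a gene, and 14484 of 41174 probes had no symbol. In the shares over all 15537 genes, a probe without a symbol was counted under the array's own name for its transcript. The fit was tested on simulated data.

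The members and the lists were chosen with earlier results of these data known. Named genes were every member with every probe, the called genes of each list (up to 3 by size) or otherwise its largest change, Hmox1, Nqo1 and Slc7a11, and the 5 genes nearest to the member with the largest change. The alternatives were normexp on median signals (offset 50), quantile normalization, median and spike-in scaling, other filters on dim probes, 1 probe a gene, other variance models, the replicate number as a block, the value table and leaving out each array. The labels give replicate numbers in both groups, but with 2 pairs these were not taken to pair the samples. Promoter windows come from RefSeq, GRCm38.p6.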

Additional observations from a re-analysis of the deposited data

How the results depend on the processing

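Of 189 values of the heat shock probes under 15 alternatives, 154 kept their direction and side of the threshold, 10 lost a call (all in Dnajb4), 16 gained one and 9 changed sign. The cause was not tested. The count of all probes called, 214 as reported, was 1032 after normexp, 130 with quantile normalization, 706 with median scaling, 739 with spike-in scaling, 0 with no filter on dim probes, 504 with probes well above background on all 4 arrays, 923 with an intensity trend, 1157 with a robust one and 17 with the replicate number as a block. It lay between 0 and 313 when 1 array was left out, at 13 without DMSO replicate 1 and 0 without DMSO replicate 2, where limma's unadjusted p was under 0.05 for 1141 higher and 1541 lower probes. The heat shock probes called, 2 as reported, numbered 6, 1, 5, 0, 4, 5, 6 and 0 under those same settings other than spike-in scaling, 1 with 1 probe a gene, and 0 to 2 with 1 array left out (1 without DEM replicate 2, 0 without either DMSO array). Their median log2 change of 0.18 was 0.33 with median scaling, 0.11 with spike-in scaling, 0.29 with 1 probe a gene and 0.11 to 0.25 with 1 array left out (0.11 without DEM replicate 2). Genes called in the 9 chaperone lists, 0 as reported, numbered 4 after normexp, 3 with median scaling, 2 with the filter on all 4 arrays, 1 with 1 probe a gene, 4 and 5 with the intensity trends, and 0 to 1 with 1 array left out. The median of those lists, 0.08, was 0.048 with quantile normalization, 0.22 with median scaling and 0.0025 with spike-in scaling, under which the medians of the other HSP40 and mitochondrial lists turned to −0.03 and −0.02. Median scaling moved the median of all probes to 0.14, against −0.01, so list medians are to be read relative to it. Of all calls, 71.7% were in the upward direction with median scaling and 35.0% with spike-in scaling, against 60.3% as reported. The log2 change of Hspa8 probe A_51_P170371 changed sign to 0.041 with median scaling and ran from −0.29 to 0.084 with 1 array left out (0.084 without DMSO replicate 1). Hsf1 probe A_51_P102943 turned to −0.086 after normexp and −0.064 with spike-in scaling and ran from −0.087 to 0.11 with 1 array left out (−0.053 without DEM replicate 2, −0.087 without DMSO replicate 2), and probe A_52_P647582 to −0.018 with quantile normalization and −0.066 with spike-in scaling and ran from −0.060 to 0.077 with 1 array left out (−0.060 without DEM replicate 2). The same-numbered arrays deviated together at r = 0.147 across probes, from 2 pairs, and the block left 17 calls in all (14 higher and 3 lower). Signals near background limit what can be said of Hspa1a, Hspa1b and Hspb1.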
